A study of Mus musculus with 9 samples.

Results

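The genes described here encode the Wnt ligands and the receptors that bind them at the cell surface. They were taken from the GENCODE M21 mouse annotation as the protein-coding genes named Wnt or Fzd with a number, plus Lrp5, Lrp6, Ror1, Ror2 and Ryk, which gave 34 of 21938 protein-coding genes. Of these, 19 encode ligands and 15 encode receptors, namely 10 Frizzled genes and 5 others. The measurement was a list of non-methylated islands (NMIs) in C127 cells, an established mouse mammary epithelial cell line with no treatment named in the labels. It came from 1 library made by BioCAP, in which DNA with unmethylated CpG sites is captured by the CXXC domain of KDM2B fixed to a resin. The series also holds a BioCAP input, an ATAC input, 3 ATAC libraries and 3 libraries of 4-thiouridine-labelled RNA, all from C127 cells per the labels, and these were not analysed here. Because there was a single BioCAP library, no value below has a replicate, and no conditions were compared.

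Wnt proteins are secreted, lipid-modified signals that act mostly between neighbouring cells. A Wnt held by a Frizzled receptor and the co-receptor Lrp5 or Lrp6 blocks the destruction of beta-catenin, which then enters the nucleus and acts with TCF/LEF factors on target genes. Other Wnt signals pass through Frizzleds, Ror1, Ror2 or Ryk without beta-catenin and set cell polarity and movement. In the mammary gland, Wnt signalling directs the forming of the bud, the branching of ducts and the upkeep of stem cells, and Wnt1 was found as a gene activated by insertion of mouse mammary tumour virus.

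A gene was scored as having an NMI when the 5′ end of at least 1 of its transcripts (a transcription start site, TSS) lay inside a listed interval. The list gives positions only, with no height, score or read count, so a gene without an NMI is one with no interval in the list at its TSSs and not one that was measured as methylated. Promoter CpG density is the number of CpG sites per 100 bp within 500 bp of the TSS with the highest such number in each gene. To show what the calls refer to, the 250 bases before the outermost TSS are printed, from the GRCm38 reference and 5′ to 3′ along each gene, for 6 genes. In each class they are the gene with the widest NMI (Wnt5a and Fzd5), the gene with the narrowest (Wnt3a and Fzd9), and a gene without an NMI whose CpG density was highest among those without (Wnt4 and Fzd10, the latter tied with Ror2). Every CpG site is in capitals.
Wnt5a: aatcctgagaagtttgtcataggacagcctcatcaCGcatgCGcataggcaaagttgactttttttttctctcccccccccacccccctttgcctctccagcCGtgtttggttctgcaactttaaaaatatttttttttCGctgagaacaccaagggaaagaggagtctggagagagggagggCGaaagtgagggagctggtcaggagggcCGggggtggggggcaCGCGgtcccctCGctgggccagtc
Wnt3a: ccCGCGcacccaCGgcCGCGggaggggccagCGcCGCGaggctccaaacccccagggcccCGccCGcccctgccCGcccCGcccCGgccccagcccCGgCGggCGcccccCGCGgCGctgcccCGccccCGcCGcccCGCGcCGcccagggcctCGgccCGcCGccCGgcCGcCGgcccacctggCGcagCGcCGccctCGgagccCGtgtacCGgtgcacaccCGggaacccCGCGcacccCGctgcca
Wnt4: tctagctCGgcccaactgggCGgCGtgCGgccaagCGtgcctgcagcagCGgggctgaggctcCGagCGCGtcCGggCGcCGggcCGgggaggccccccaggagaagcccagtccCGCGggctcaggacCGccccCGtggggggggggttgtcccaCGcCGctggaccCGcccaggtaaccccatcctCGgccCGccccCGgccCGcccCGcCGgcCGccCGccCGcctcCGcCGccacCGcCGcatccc
Fzd5: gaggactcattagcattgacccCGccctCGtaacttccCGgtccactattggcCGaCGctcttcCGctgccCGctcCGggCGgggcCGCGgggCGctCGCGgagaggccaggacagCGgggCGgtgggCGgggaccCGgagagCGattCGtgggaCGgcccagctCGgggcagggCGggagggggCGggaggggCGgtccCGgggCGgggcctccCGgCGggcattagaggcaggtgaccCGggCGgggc
Fzd9: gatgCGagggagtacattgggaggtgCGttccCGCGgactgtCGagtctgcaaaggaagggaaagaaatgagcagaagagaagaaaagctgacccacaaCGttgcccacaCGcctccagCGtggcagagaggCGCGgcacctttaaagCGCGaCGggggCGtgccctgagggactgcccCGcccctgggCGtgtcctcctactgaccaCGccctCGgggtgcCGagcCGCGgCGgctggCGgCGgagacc
Fzd10: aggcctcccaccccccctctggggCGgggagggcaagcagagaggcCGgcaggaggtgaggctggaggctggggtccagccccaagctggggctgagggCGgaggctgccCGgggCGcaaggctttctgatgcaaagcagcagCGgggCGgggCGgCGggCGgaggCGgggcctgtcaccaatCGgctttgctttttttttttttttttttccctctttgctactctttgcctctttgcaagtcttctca

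The windows lie at chr14:28504500-28504749 on the plus strand (Wnt5a), chr11:59290753-59291002 on the minus strand (Wnt3a), chr4:137277239-137277488 on the plus strand (Wnt4), chr1:64737752-64738001 on the minus strand (Fzd5), chr5:135251231-135251480 on the minus strand (Fzd9) and chr5:128600594-128600843 on the plus strand (Fzd10). They hold 9, 41, 33, 31, 24 and 12 CpG sites in that order. Over all 21938 genes the same window held a median of 8.00 CpG sites, and 92.4% of genes had at least 1. The printed genes were picked by NMI width or, without an NMI, for the highest CpG density. They therefore cannot show whether the number of CpG sites in this window goes with NMIs, and their counts are examples only. Wnt4, with no NMI, had 33 CpG sites, a number that 4.08% of genes reached, whereas Wnt5a, with the widest NMI of any member, had 9, which 48.9% of genes reached. The count at Wnt5a depends on the TSS: the 250 bases before its densest TSS, in the same NMI, held 27. Wnt3a had 41 CpG sites, which 1.10% of genes reached, under an NMI of only 659 bp.

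The ligands had NMIs less often than the receptors. Of 19 ligand genes, 4 had an NMI at a TSS (21.1%, 95% Clopper-Pearson interval 6.05 to 45.6%), namely Wnt3a, Wnt5a, Wnt9a and Wnt10b. Among receptor genes it was 11 of 15 (73.3%, 44.9 to 92.2%). In the background of all protein-coding genes, 47.5% had an NMI, so the ligand share was below it and the receptor share above it, while the members as one set (15 of 34, 44.1%, 27.2 to 62.1%) were close to it. The ligand share minus the receptor share was -52.3 percentage points (Newcombe 95% interval -72.4 to -18.6). These intervals cover counting error only, and genes of a family share ancestry and sequence, so they are not independent replicates and no test was made.

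In both receptor types the share was above the 47.5% of all genes, though the interval of each took in that value. Of the Frizzleds, 8 of 10 had an NMI (80.0%, 44.4 to 97.5%), namely Fzd1, Fzd2, Fzd3, Fzd4, Fzd5, Fzd6, Fzd7 and Fzd9. Of the other receptors, 3 of 5 had one (60.0%, 14.7 to 94.7%). These were Lrp5 and Lrp6, the co-receptors of the beta-catenin branch, and Ryk, a receptor with a Wnt-binding domain and an inactive kinase. The receptors without an NMI were Fzd8, Fzd10, and the receptor tyrosine kinases Ror1 and Ror2, which bind Wnt5a. Counted by single start sites, 13 of 50 distinct TSSs of ligand genes (26.0%) and 19 of 35 of receptor genes (54.3%) lay in an NMI. No share of start sites over all genes is given here, so these counts compare ligands with receptors only.

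**Figure D1:**
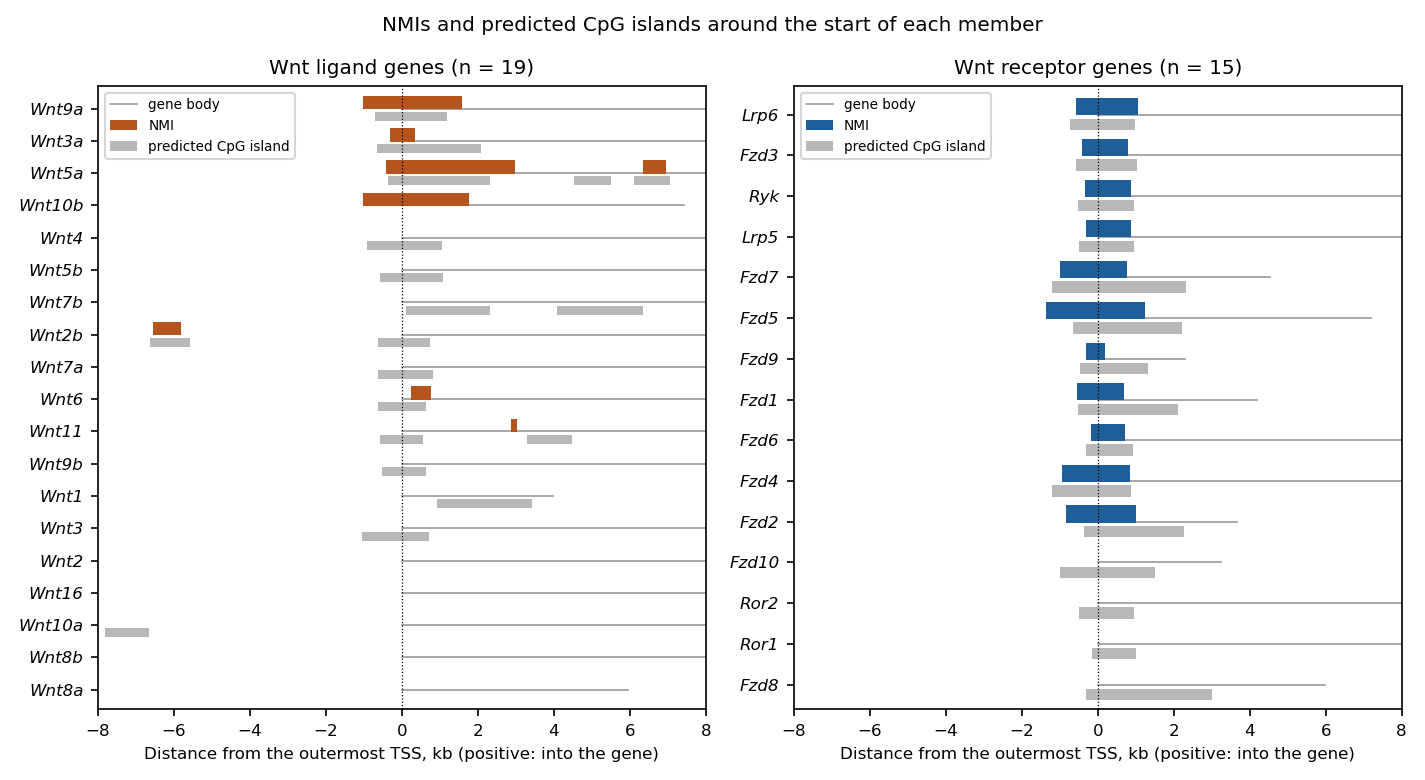
Map of NMIs (coloured), predicted CpG islands (light grey) and gene bodies (grey lines) within 8 kb of the outermost TSS of each gene, drawn in the direction of transcription, with ligands on the left and receptors on the right. Genes with an NMI at a TSS come first in each panel, in falling order of CpG density, and NMIs cross the start of 4 ligand and 11 receptor genes.

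Among ligands, NMIs were few but mostly wide. The widest NMI at the 4 genes had a median width of 2700.5 bp (659 to 3412 bp), against 1226 bp (495 to 2597 bp) at the 11 receptors and 1210 bp at all genes with one. The ligand median fell to 1634 bp when NMIs within 1000 bp of a TSS counted, which added Wnt6 and Wnt11, and the ranges of the classes overlapped. Wnt5a, the classical ligand of beta-catenin-independent signalling, lay under the widest, 3412 bp at chr14:28504329-28507740. It held 203 CpG sites and covered 2 of the gene's 6 TSSs. It began 421 bp before the outermost TSS, covered the whole of a predicted CpG island of 2672 bp and ran into the first intron, with 1359 bp in untranslated exon and 1626 bp in intron. A second NMI of 584 bp at chr14:28511111-28511694 held 3 further TSSs of Wnt5a and a TSS of Gm2670, so that 5 of 6 Wnt5a start sites were in an NMI.

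Wnt10b, a ligand of the embryonic mammary bud, had all 5 of its TSSs inside 1 NMI of 2792 bp at chr15:98776381-98779172. It had 157 CpG sites at an observed over expected CpG ratio of 0.579, which was below the limit of 0.65 set for a predicted island, and Wnt10b was the only 1 of the 4 ligands whose TSSs lay in no predicted island. Of its bases 1022 lay before the gene, 337 were coding, 467 were in untranslated exon and 966 in intron. Wnt9a was covered by an NMI of 2609 bp at chr11:59305898-59308506 with 203 CpG sites. Both TSSs of Wnt9a and the whole of its 1881 bp predicted island were inside it. Wnt3a, a ligand widely used to activate beta-catenin signalling, had the narrow one. Its NMI of 659 bp at chr11:59290405-59291063 held 71 CpG sites and covered 24.2% of a predicted island of 2718 bp, leaving 334 bp upstream and 1725 bp downstream outside. In the ranking of all NMIs by width, those of Wnt5a, Wnt10b and Wnt9a stood at the 99.2, 98.1 and 97.5 percentiles, and that of Wnt3a at 29.1.

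The ligands with no NMI at a TSS were 15, and Wnt6 and Wnt11 had one close by. At Wnt6, an NMI of 511 bp at chr1:74772141-74772651 began 249 bp downstream of the nearest TSS. It took in 77 coding bases of the first exon and 429 bp of the first intron, and covered 31.6% of the gene's 1267 bp predicted island. At Wnt11, a ligand known from cell movement in the embryo and branching in the kidney, an NMI of 173 bp at chr7:98837979-98838151 lay in an intron, 694 bp from the nearest of its 5 TSSs. At the other ligands the nearest NMI was at least 5803 bp away (Wnt2b), and over all 15 the median distance was 18961 bp (249 to 335616 bp, the farthest at Wnt2), with 10 beyond 10 kb.

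Some of these near NMIs belonged to other genes. Within the body of Wnt5b, an intronic NMI of 2362 bp at chr6:119478865-119481226 held a TSS of Fbxl14, 11654 bp from the nearest Wnt5b TSS. The nearest NMI to Wnt4 was that of Cdc42, 79360 bp away. Wnt4 acts downstream of progesterone in side-branching of the mammary ducts. Wnt10a had 2 NMIs in its body, of 338 bp at chr1:74800737-74801074 over part of exon 3 and of 170 bp at chr1:74803324-74803493, wholly coding, in the last exon, and none at its 2 TSSs.

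The 4 receptors without an NMI were farther from one than 14 of the 15 ligands without. The nearest was at 90469 bp for Ror2, 133277 bp for Fzd10, 165485 bp for Ror1 and 237148 bp for Fzd8, a median of 149381 bp. No such distance for all genes without an NMI is given here, so the distances compare ligands with receptors only. Each of these 4 genes carried a predicted CpG island at its TSS, of 1460, 2500, 1148 and 3299 bp in the same order, and no base of these islands was in an NMI.

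Ligand and receptor promoters overlapped widely in CpG content. The median density was 7.79 CpG per 100 bp at ligands (1.90 to 13.7) and 9.49 at receptors (5.00 to 15.1), against 5.00 for all genes, 7.19 for all genes with an NMI and 1.70 for all without. Of ligands without an NMI, Wnt4 (13.7 CpG per 100 bp), Wnt5b (13.0) and Wnt7b (11.3, a ligand of lung and kidney development) had promoters denser than those of 98.7%, 97.8% and 94.1% of genes. Wnt10b, with an NMI, had 6.09, the same density as Wnt1 and Wnt3, which had none. At the low end, Wnt8a (1.90) and Wnt8b (2.10) had the CpG-poorest promoters of the 34 genes.

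The shares were then read at like CpG density, in strata whose limits were set after the densities had been seen. In the stratum from 0 to 3 CpG per 100 bp, 2.37% of all genes had an NMI and neither of the 2 ligands there did. From 3 to 6 it was 61.9% of all genes, 0 of 3 ligands (Wnt2, Wnt10a and Wnt16) and 0 of 2 receptors (Fzd8 and Ror1). Within that stratum the share of all genes rose from 38.8% (3 to 4) to 74.7% (5 to 6). From 6 to 9 it was 80.1% of all genes, 3 of 8 ligands and 2 of 2 receptors. At 9 or more it was 83.0% of all genes, 1 of 6 ligands and 9 of 11 receptors. Thus in the 3 upper strata the ligand share was below that of all genes at like density, and in the 2 highest the receptor share was near or above it, on counts too small to rank strata.

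**Figure D2:**
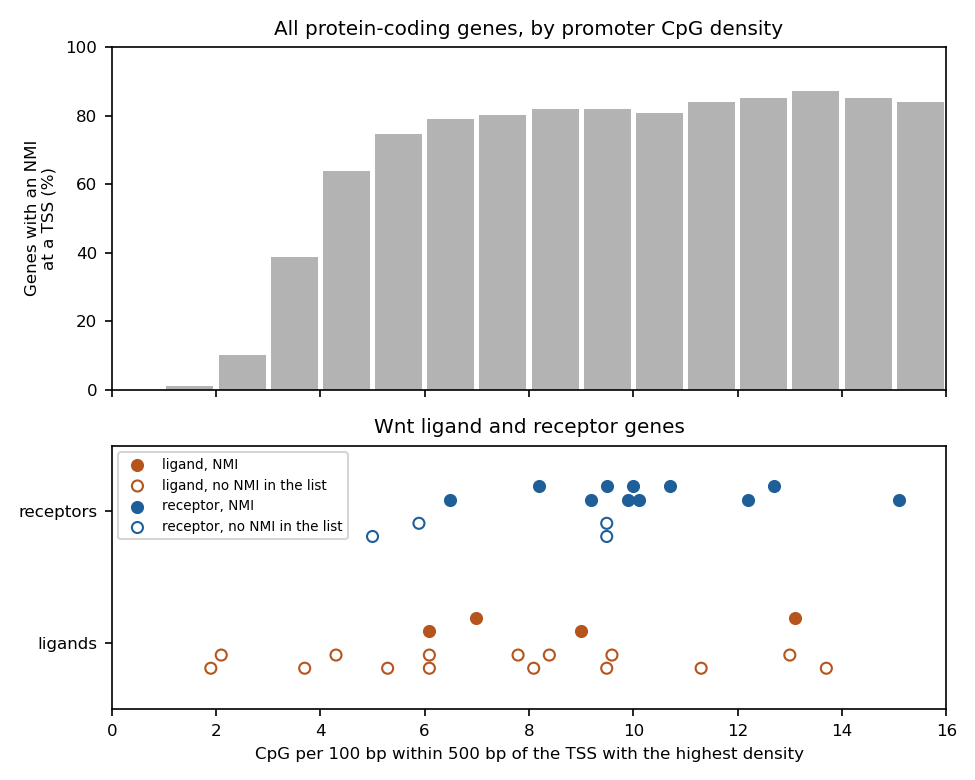
Upper panel, percent of all protein-coding genes with an NMI at a TSS in bins of 1 CpG per 100 bp of promoter density, the last bin holding all genes at 15 or more. Lower panel, the density of each ligand (orange) and receptor (blue), filled where the gene had an NMI and shifted vertically only to keep points apart, with ligands lacking an NMI spread from 1.90 to 13.7 CpG per 100 bp.

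Among genes with a CpG island predicted from sequence alone, the ligand share was again below that of all genes. Predicted islands were stretches of at least 500 bp with GC of at least 55% and an observed over expected CpG ratio of at least 0.65. A predicted island lay at a TSS of 12 of 19 ligand genes (63.2%) and 15 of 15 receptor genes, against 45.0% of all genes. Of all genes with a predicted island, 80.5% had an NMI. Of the ligands with one it was 3 of 12 (25.0%, 5.49 to 57.2%), namely Wnt3a, Wnt5a and Wnt9a. Of the receptors it was 11 of 15 (73.3%, 44.9 to 92.2%), below 80.5% but with an interval that takes it in. By type this was 8 of 10 Frizzleds (80.0%) and 3 of 5 other receptors (60.0%). The 9 ligands with an island and no NMI at a TSS were Wnt2b, Wnt3, Wnt4, Wnt5b, Wnt6, Wnt7a, Wnt7b, Wnt9b and Wnt11. Their islands had a median width of 1439 bp (1166 to 2257 bp), and in all but Wnt6 no base of the island was in an NMI. Counted by start sites, 8 of 25 ligand TSSs in a predicted island (32.0%) and 19 of 24 receptor TSSs in one (79.2%) lay in an NMI. Here too no share of start sites over all genes is given.

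At several Frizzleds the NMI stopped short of the end of the predicted island, and the part left out was mostly or wholly coding sequence. Over the 11 receptors with an NMI the median share of the island inside NMIs was 73.6% (27.6 to 91.9%), against 89.3% for the 7943 genes of the whole annotation with both (quartiles 80.8 and 96.2%). The islands of these receptors were also wider, with a median of 1795 bp (1223 to 3522 bp) against 1330 bp for the 7943 genes. Whether the lower cover goes with island width was not tested. The lowest shares were at Fzd9 (27.6%), Fzd1 (45.5%), Fzd7 (50.1%), Fzd2 (51.8%) and Fzd5 (65.8%). Fzd1, Fzd2, Fzd7 and Fzd9 have a single exon, and Fzd5 has 2. At Fzd1 all 1433 island bases outside NMIs were coding, at Fzd5 all 987, at Fzd9 1127 of 1300 (86.7%), at Fzd7 1490 of 1758 (84.8%) and at Fzd2 1047 of 1262 (83.0%). The NMIs of Fzd1, Fzd2, Fzd5 and Fzd7 also held coding bases (226, 663, 89 and 226), and that of Fzd9 held none. No coding share of uncovered island bases over all genes is given here, so these shares have no background. At Fzd3, Fzd4 and Fzd6, and at Lrp5, Lrp6 and Ryk, 139 to 415 island bases were outside NMIs and none of them was coding. Fzd3 and Fzd6 have 7 exons in their coding transcripts and Fzd4 has 2. Among ligands, the island of Wnt3a had 2059 bases outside NMIs, and none of them was coding.

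**Figure D3:**
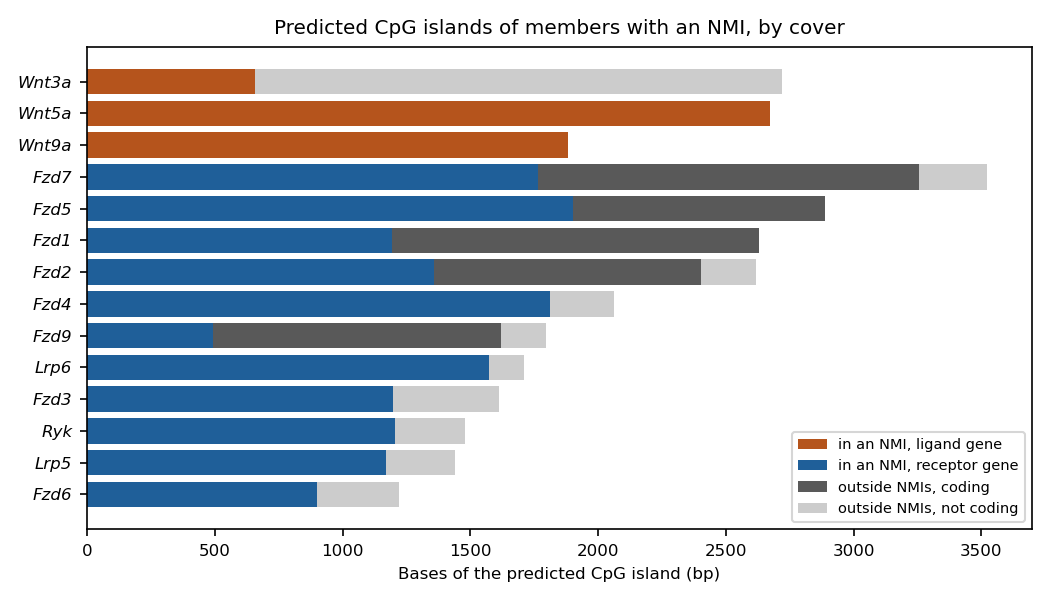
Bases of the widest predicted CpG island at a TSS of each gene with both an NMI and an island, split into those inside NMIs (orange for ligands, blue for receptors) and those outside that were coding (dark grey) or not (light grey). Dark grey appears at Fzd1, Fzd2, Fzd5, Fzd7 and Fzd9, with 987 to 1490 bp.

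The receptor NMIs ran from among the widest of all to narrow. The widest were at Fzd5 (2597 bp, chr1:64736512-64739108, both TSSs), Fzd2 (1849 bp, chr11:102603546-102605394), Fzd4 (1811 bp, chr7:89403402-89405212), Fzd7 (1764 bp, chr1:59481422-59483185) and Lrp6 (1646 bp, chr6:134565902-134567547). In the ranking of all NMIs by width these stood at the 97.5, 89.8, 89.0, 87.9 and 84.8 percentiles, the first level with Wnt9a. Those at Fzd1 (1226 bp, chr5:4757355-4758580), Ryk (1206 bp, chr9:102834593-102835798), Fzd3 (1197 bp, chr14:65261676-65262872) and Lrp5 (1170 bp, chr19:3685701-3686870) were near the median of all genes. Fzd6 (900 bp, chr15:39005852-39006751) and Fzd9 (495 bp, chr5:135251042-135251536) had the narrowest. The NMI of Fzd4, the receptor that norrin also binds in the retina, held a TSS of Tmem135 as well, and that of Fzd6, known for hair patterning in mice, a TSS of Gm26704. For those the interval cannot be given to either gene alone.

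About the start site, the extents of ligand and receptor NMIs overlapped. The 5 ligand NMIs, 2 of them at Wnt5a, reached a median of 421 bp upstream (279 to 1030 bp) and 1578 bp downstream (304 to 2990 bp) of a TSS. The 11 receptor NMIs reached 545 bp (182 to 1357 bp) and 857 bp (188 to 1239 bp). The NMIs themselves held a median of 6.68 CpG per 100 bp at ligands (5.62 to 10.8) and of 9.67 at receptors (6.62 to 12.9), with overlapping ranges.

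Each of the 4 ligands with an NMI had a close relative without one. Whether relatives were more or less alike than the shares of 4 of 19 ligands and 11 of 15 receptors would give was not tested. In 4 of the 7 ligand pairs of like sequence 1 gene had an NMI and the other did not (Wnt3a without Wnt3, Wnt5a without Wnt5b, Wnt9a without Wnt9b, Wnt10b without Wnt10a). In the other 3 (Wnt2 and Wnt2b, Wnt7a and Wnt7b, Wnt8a and Wnt8b) neither had one, and in none did both. Among receptors, all genes had an NMI in 3 of 6 groups (Fzd1, Fzd2 and Fzd7; Fzd3 and Fzd6; Lrp5 and Lrp6), some in 2 (Fzd4 and Fzd9 without Fzd10, and Fzd5 without Fzd8) and none in 1 (Ror1 and Ror2).

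Among the ligand genes, 4 pairs are neighbours with TSSs within 100 kb, and no receptor gene has such a neighbour among the members. Wnt9a and Wnt3a, on chromosome 11 with TSSs 16176 bp apart and pointing away from each other, both had an NMI, in separate intervals. Wnt10b had one and Wnt1, 11707 bp away on chromosome 15, did not, its nearest NMI being 9628 bp downstream. Wnt10a and Wnt6 on chromosome 1 (9077 bp) and Wnt3 and Wnt9b on chromosome 11 (24329 bp) had none at their TSSs. Wnt1 and Wnt3 are both known insertion sites of mouse mammary tumour virus.

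The rest of the pathway was read from lists by role, and 59 of 92 other genes had an NMI (64.1%, 53.5 to 73.9%, against 47.5% of all genes). A predicted island lay at a TSS of 73 of the 92, against 45.0% of all genes. Of those 73, 54 had an NMI, a share below the 80.5% of all genes with an island. Of secreted inhibitors, 3 of 15 had an NMI (20.0%, 4.33 to 48.1%). Their promoters were poorer in CpG than those of the ligands, with a median of 4.40 per 100 bp, and of the 6 with a predicted island 3 had an NMI, against 3 of 12 ligands. The genes with an NMI were Notum (2337 bp), the enzyme that strips the lipid from Wnts, Sfrp2 (1430 bp), which carries a Frizzled-like domain, and Wif1 (686 bp), which binds Wnts. Cer1, Dkk1, Dkk2 and Dkk3 were among the 12 without. R-spondins and their Lgr receptors, which raise the response to Wnt, had 1 of 7, Lgr4 (1757 bp), and 1 of the 5 with a predicted island. Membrane inhibitors had 5 of 6, among them Znrf3 (2029 bp) and Rnf43 (868 bp), the ligases that remove Frizzleds from the surface, and without Kremen2, and 4 of the 4 with a predicted island.

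In 3 of the other lists NMIs were found at nearly every gene. They lay at 6 of 6 genes for Wnt maturation and release, which include Vps35 (2112 bp) and Vps26a (1654 bp), subunits of the retromer, and Wls (1528 bp), the Wnt carrier that the retromer recycles. They lay at 21 of 21 cytoplasmic transducers, among them Gsk3b (3489 bp) and Gsk3a (2268 bp), the kinases of the beta-catenin destruction complex. They lay at 13 of 14 nuclear effectors, led by the co-repressor Tle3 (4298 bp) and the transcription factor Tcf7l2 (3522 bp), and without Tle4. Genes of planar polarity had 8 of 15, near the background. Of commonly cited target genes, 3 of 10 had one, namely Myc (5180 bp), Ccnd1 (4886 bp) and Axin2 (1107 bp). Axin2 and Lgr5 each stand in more than 1 list. Among genes with a predicted island, of which 80.5% in the whole annotation had an NMI, the count was 7 of 12 for planar polarity, 3 of 9 for targets, 20 of 20 for cytoplasmic transducers, 12 of 13 for nuclear effectors and 5 of 5 for maturation and release.

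**Figure D4:**
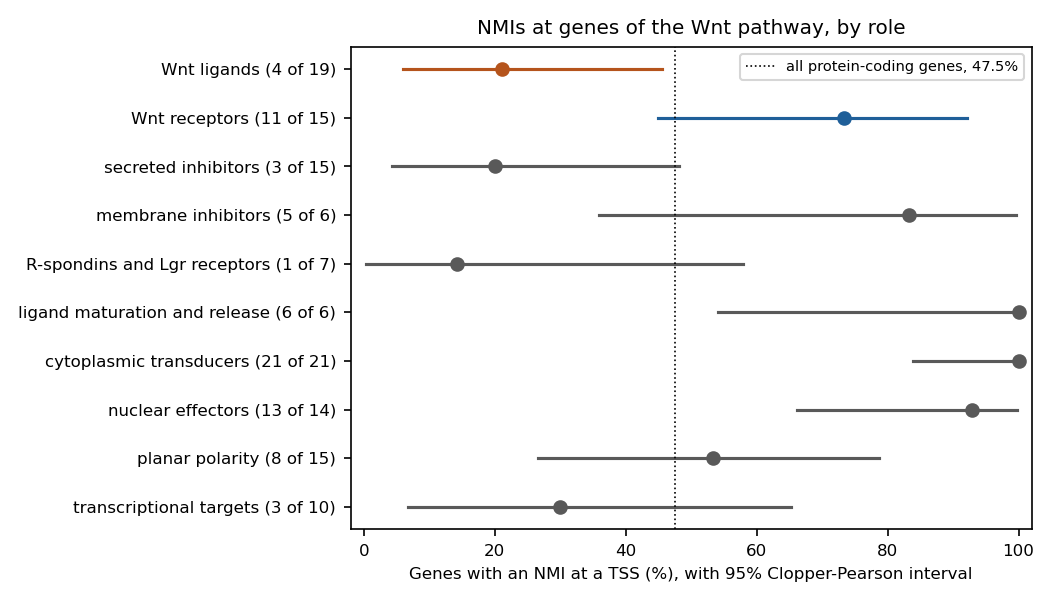
Percent of genes with an NMI at a TSS for Wnt ligands, Wnt receptors and 8 lists of other pathway genes, with 95% Clopper-Pearson intervals as horizontal lines and the counts in the labels. The dotted line is the 47.5% of all protein-coding genes, and ligands (21.1%) and secreted inhibitors (20.0%) lie to its left while receptors (73.3%) lie to its right.

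As a check of the cell type on the label, 8 genes that mark epithelium (Epcam, Cdh1 and keratins) and 8 that mark mesenchyme were read in the same way. None of the 8 epithelial genes had an NMI at a TSS (upper 95% limit 36.9%), and 7 of 8 mesenchymal genes did, all but Pdgfrb. A predicted island lay at a TSS of 2 of the epithelial and 6 of the mesenchymal genes, and median CpG density was 3.90 and 6.64 per 100 bp. At the density of Krt5 and Krt14, 2.30 CpG per 100 bp, few genes of any kind had an NMI (2.37% in the stratum from 0 to 3). Krt8 (3.10) and Krt19 (3.20) lay in the bin from 3 to 4, where 38.8% of all genes had one. Krt18 (4.60) lay where 63.7% did and Krt7 (5.39) where 74.7% did. Cdh1 (6.99) and Epcam (10.5), the 2 with a predicted island, lay where 80.1% and 83.0% did. Of the mesenchymal genes, Cdh2, Zeb1 and Zeb2 (9.59 to 12.1) also lay where 83.0% did. Fn1, Pdgfra and Vim (6.39 to 6.69) lay where 80.1% did, and Col1a1 (3.60) and Pdgfrb (3.10) where 38.8% did. Of the genes with an island, 0 of 2 epithelial and 6 of 6 mesenchymal genes had an NMI, against 80.5% over all genes with an island. The list measures DNA and not expression, so these genes do not settle the label. The bearing of this on the Wnt genes was not tested.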

How the data were processed

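The authors deposited 13491 NMIs for 1 BioCAP library of C127 cells as bare chromosomal positions, with no score or read count, so the depth behind a call is unknown. Per the study's methods, reads were aligned to mm10 with Bowtie2, reads without a unique position and duplicates (SAMtools) were discarded, and intervals were called with MACS (MACS2 in the submitters' processing notes). The methods also set a false discovery rate limit for the MACS calls. Tool versions and the use of the input as a control are not given in the sources that were used. Copies of a sequence that attract no unique reads can yield no interval.

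Coordinates were read 1-based against GENCODE M21 and the GRCm38 reference, the build of mm10, and promoter sequence was taken from the RefSeq copy of GRCm38. The 13489 NMIs on assembled chromosomes were joined to TSSs with an overlap of at least 1 bp, using Python 3.11.15, pandas 2.3.3 and scipy 1.17.1. Island finding was tested on simulated sequence, and CpG counting and a basic overlap step on small made-up examples. Intervals for shares are at the 95% level. All 34 members were named. Of each other list up to 4 genes with the widest NMI and up to 4 without one, in alphabetical order, could be named. Members, lists and tests were chosen with earlier results of these data known. Alternatives were other distances from TSS to NMI, other TSS sets, wide NMIs only, a larger overlap and other definitions of CpG density and island.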

Additional observations from a re-analysis of the deposited data

How the results depend on the processing

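The counts held under the alternatives tried. Ligands with an NMI numbered 4 to 6 and receptors 10 to 11, and the ligand share stayed below the receptor share, the difference running from -52.3 to -41.8 points. Wnt6 was added when a TSS within 250 bp of an NMI counted, Wnt6 and Wnt11 when within 1000 bp, and Fzd9 was lost when NMIs no wider than 572.5 bp, the lower quartile, were left out. Only the median NMI width at ligands moved by over 1.5 times, from 2700.5 to 1634 bp at 1000 bp, as the narrow NMIs near Wnt6 and Wnt11 entered. Of the ligands with a predicted island, 25.0 to 33.3% had an NMI over all alternatives. Looser islands gave 25.0%, joined stretches with no limit on the whole (chosen after seeing the data) 26.7%, outermost TSSs 27.3% and any overlap of NMI and island 33.3%. No paired analysis was possible because the list comes from 1 library and no groups were compared. The study's methods set a false discovery rate limit for the list as a whole. With no replicate, no read count and no score, neither the error of a single call nor the depth needed for one can be given. A narrow interval such as that of Fzd9 or Wnt3a cannot be weighed against a wide one by signal.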
